A study of Homo sapiens with 12 samples.

Results

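The genes described here are the protein-coding ZNF genes of human chromosome 19, taken as all rows of the deposited count table whose Ensembl identifier maps to a protein-coding gene on that chromosome (GRCh38) with a symbol made of ZNF and a number. The rule gave 251 of 62656 rows and used no measured value. They were read in 12 mRNA libraries of a conditionally immortalized human podocyte line, which is kept dividing by a thermolabile SV40 large-T antigen, was grown at 33 °C and was kept at 37 °C for 12 days. Podocytes are the cells that wrap the capillaries of the kidney glomerulus. A stable Tet-On construct held eGFP (pCW-eGFP, the GFP line) or FLAG-NLS-YAP5SA (the YAP5SA line). YAP is a co-activator of transcription, and in YAP5SA the sites by which the Hippo kinases restrain it are changed. The 4 groups of 3 libraries were GFP without doxycycline, GFP with it, YAP5SA without it and YAP5SA with it, the dose being 0.1 µg/ml for 24 hours. All groups share the large-T antigen and a Tet-On construct, and each line stands for 1 construct, so differences between the lines cannot be told apart from differences between 2 cell populations that were made separately. The labels do not say whether the replicates were separate cultures, and the p-values below reflect the spread among these libraries alone, which may be technical.

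Most ZNF proteins of chromosome 19 carry an array of C2H2 zinc fingers, each a small fold held by a zinc ion, which together read a stretch of DNA. Many also carry a KRAB box, which binds the scaffold TRIM28 (KAP1); TRIM28 in turn brings the histone methyltransferase SETDB1, HP1 proteins and histone deacetylases, and many of the best-known targets are transposable elements. The genes arose by repeated duplication and lie in clusters, so neighbours are similar in sequence and reads can be hard to assign.

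Library totals ranged from 24477592 to 25993413 counts, and the 251 genes together took 54407 to 59707 counts a library. The targeted row, YAP1, held 969.8 to 1757 CPM (counts per library size, after TMM scaling) in the induced libraries and 221 to 375 CPM in the uninduced YAP5SA libraries. Of the podocyte markers, NPHS1 and WT1 had 18 and 71 counts over all 12 libraries, so these defining markers were close to absent. SYNPO, KIRREL1, CD2AP and PODXL were present. The 3 endothelial markers had 2 to 28 counts each.

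The 251 genes were of one general build. The letters of a KRAB box were found in the translated gene model of 202 of them and not in 49, which does not show that the box is missing there. The number of C2H2 fingers by letters had a median of 12 and ran from 0 to 36. Transcript GC content had a median of 42.26% (33.91 to 71.06%). In 94 genes at least 5% of the 50-base words of the exons also occurred in another gene, and in 12 genes at least 50% did. Exons of 80 genes overlapped a gene on the opposite strand, and reads of such pairs cannot be told apart, since no source used here gives the strand setting of the counting. Grouped by starts at most 500000 bases apart, 237 genes lay in 10 clusters of 5 or more.

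Promoter sequences are shown for 4 genes because these genes rose with YAP5SA and because the DNA-binding partners of YAP, the TEAD factors, read GGAATG. ZNF69 and ZNF426 rose and hold these letters. ZNF714 and ZNF431 are neighbours with large rises, were added after their values were seen and hold none. Each run covers 250 bases before to 50 after the RefSeq start (GRCh38.p14, chromosome 19), 5′ to 3′ on the gene's strand, with GGAATG or its reverse complement CATTCC in capitals. The positions are chr19:11887532-11887831 (plus strand) for ZNF69, chr19:9538596-9538895 (minus strand) for ZNF426, chr19:21081953-21082252 (plus strand) for ZNF714 and chr19:21141790-21142089 (plus strand) for ZNF431.
ZNF69: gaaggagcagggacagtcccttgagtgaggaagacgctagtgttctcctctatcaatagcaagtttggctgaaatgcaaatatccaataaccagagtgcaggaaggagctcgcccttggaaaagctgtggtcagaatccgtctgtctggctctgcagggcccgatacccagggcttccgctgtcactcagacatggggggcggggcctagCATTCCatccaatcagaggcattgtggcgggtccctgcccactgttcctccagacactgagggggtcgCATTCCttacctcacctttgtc
ZNF426: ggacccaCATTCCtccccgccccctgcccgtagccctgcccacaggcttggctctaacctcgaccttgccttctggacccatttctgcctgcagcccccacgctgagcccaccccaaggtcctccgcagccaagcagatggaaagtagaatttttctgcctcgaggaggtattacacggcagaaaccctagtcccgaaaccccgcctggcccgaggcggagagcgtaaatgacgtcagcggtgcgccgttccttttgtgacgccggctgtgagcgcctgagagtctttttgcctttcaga
ZNF714: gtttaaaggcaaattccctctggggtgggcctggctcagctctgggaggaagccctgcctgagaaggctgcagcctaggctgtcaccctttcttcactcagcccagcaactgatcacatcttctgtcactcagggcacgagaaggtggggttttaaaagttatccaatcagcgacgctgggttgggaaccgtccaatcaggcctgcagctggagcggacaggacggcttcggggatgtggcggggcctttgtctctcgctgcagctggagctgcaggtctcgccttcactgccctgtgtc
ZNF431: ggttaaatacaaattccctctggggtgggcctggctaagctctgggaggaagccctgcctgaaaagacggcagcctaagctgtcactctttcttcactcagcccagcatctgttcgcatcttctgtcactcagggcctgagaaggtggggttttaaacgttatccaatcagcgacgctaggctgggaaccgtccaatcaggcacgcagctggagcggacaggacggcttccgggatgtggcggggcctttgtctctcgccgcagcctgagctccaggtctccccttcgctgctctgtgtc
The ZNF714 and ZNF431 runs, set side by side without gaps, had the same base at 273 of 300 positions (91.0%). Promoters were matched for 219 of the 251 genes. GGAATG on either strand was in 34 of these 219 (15.525%) and in 4928 of all 35116 promoters in the table (14.033%). The AP-1 letters TGANTCA were in 14 of the 219 (6.393%) and in 2707 of all promoters (7.709%). A match of letters is a description and not a bound site.

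Levels were low. After a filter on low counts 228 of the 251 genes were tested, 23 were not, and 3 of those had no count in any library. The median level of a tested gene was 6.15 CPM, against 15.6 CPM over the 17470 genes tested. Per length, which allows genes to be compared, the median was 1.22 RPKM (CPM per kilobase of exon, range 0.0662 to 18.7), with 131 genes above 1 RPKM and 17 above 5 RPKM. The 6 highest were ZNF579 (18.7 RPKM), ZNF146 (17.1 RPKM), ZNF428 (14.6 RPKM), ZNF787 (12 RPKM), ZNF580 (11.9 RPKM) and ZNF358 (11.8 RPKM), and no KRAB letters were found in any of these 6. By the same measure the median RPKM was 1.07 in the tested genes with KRAB letters and 2.50 in those without.

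The main question was which genes changed when YAP5SA was induced. Few chromosome 19 ZNF genes changed with doxycycline in the YAP5SA line: 12 rose and 3 fell of 228 tested (6.58% called, at an edgeR quasi-likelihood Benjamini-Hochberg adjusted p below 0.05 over all genes). Over all 17470 genes tested 19.1% were called, 9.83% higher and 9.28% lower. The median log2 fold change of the ZNF genes was 0.010, against -0.003 over all genes, and 119 of 228 were positive. With the lower counts the errors were wider, with a median SE of 0.118 on the log2 scale against 0.098 over all genes. The split of 12 higher and 3 lower was 10 and 5 with a correction for GC content, which also turned the sign of the median (-0.006). Without replicate 1 of the induced libraries, 6 rose and 3 fell. All 3 induced libraries lay above all 3 uninduced ones for 22 of the 228 genes and below them for 11 (17.8% and 16.8% of all genes).

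**Figure D1:**
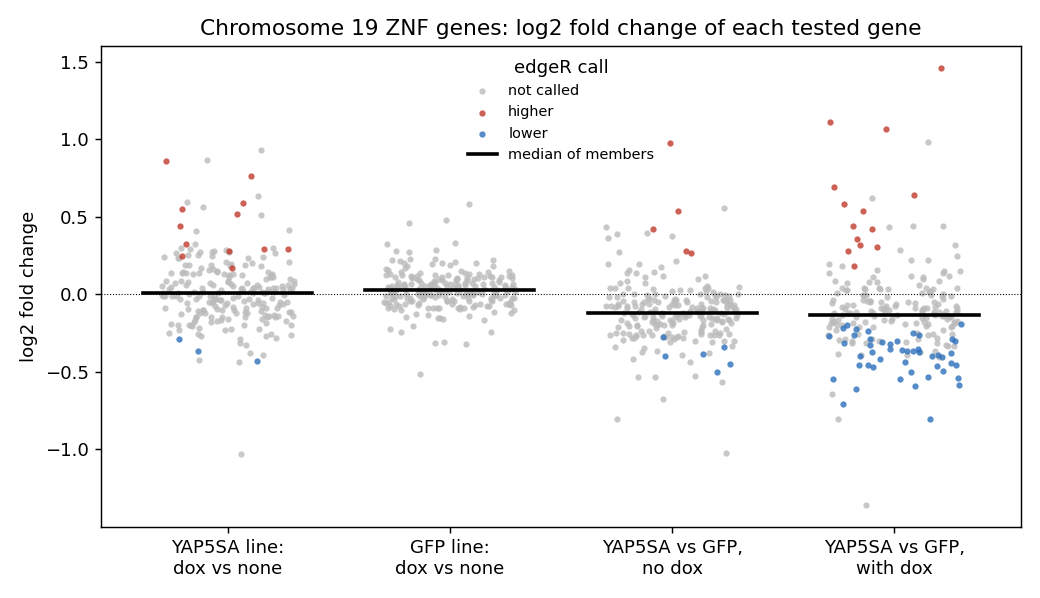
Log2 fold change (vertical axis) of each of the 228 tested chromosome 19 ZNF genes in 4 comparisons (horizontal axis); each point is a gene, coloured by its edgeR call, and the black line is the median of the genes. The median lies near 0 for doxycycline in either line and below 0 between the lines, at -0.119 without and -0.136 with doxycycline.

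The 3 rises with the smallest p came from the cluster that runs from ZNF101 to ZNF254. ZNF714 (ENSG00000160352, 21082159 to 21125270, plus strand) held 61.1, 61.1 and 60.6 CPM in the uninduced YAP5SA libraries and 110.3, 103 and 97.6 CPM in the induced ones. In the GFP line it held 42.7, 46.1 and 47.7 CPM without and 43.8, 48 and 52 CPM with doxycycline. All induced libraries lay above all others, and the uninduced YAP5SA libraries lay above all 6 GFP libraries. The log2 fold change on induction was 0.77 ± 0.064 (SE, edgeR adjusted p = 8.91e-06), against 0.076 ± 0.065 for doxycycline in the GFP line (adjusted p = 1, edgeR).

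ZNF431 (ENSG00000196705, 21142024 to 21196053, plus strand), a KRAB gene next to it, went from 37.6, 32.7 and 39.3 CPM to 53.9, 49.6 and 53.2 CPM on induction. The GFP libraries held 23.5, 23.8 and 28.3 CPM without and 23.9, 23.8 and 27.2 CPM with doxycycline. The groups with YAP5SA did not overlap with each other or with the GFP groups, while the GFP groups overlapped. The rise was 0.51 ± 0.084 (log2, SE, edgeR adjusted p = 0.000959). ZNF738 (ENSG00000172687, 21358930 to 21379302, plus strand) rose from 12.8 ± 0.8 to 18.8 ± 0.476 CPM (SD, n = 3), a log2 fold change of 0.55 ± 0.063 (edgeR adjusted p = 7.95e-05). Its induced libraries held 18.8, 18.3 and 19.2 CPM and its GFP libraries at most 11.9 CPM. The gene model of ZNF738 has KRAB letters and no C2H2 finger by letters. Of its 50-base words 2.08% were shared with other genes, against 4.09% for ZNF714 and 5.64% for ZNF431.

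**Figure D2:**
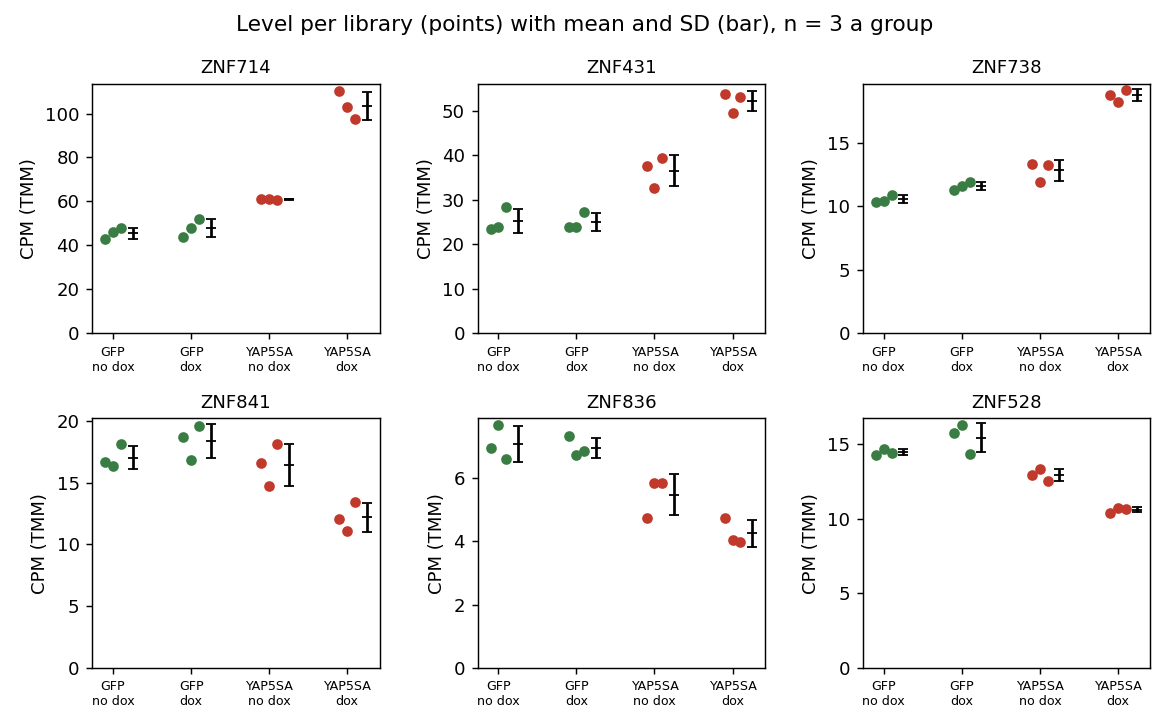
Level in CPM (vertical axis from 0) of 6 ZNF genes in each of the 12 libraries, by group (horizontal axis); points are libraries and bars are the mean and SD of 3. ZNF714, ZNF431 and ZNF738 are highest in the induced YAP5SA libraries, and ZNF841 and ZNF528 are lowest there; for ZNF836 the induced and uninduced libraries touch.

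The effect of doxycycline differed between the lines for 5 of the 228 genes, 3 with a higher and 2 with a lower effect in the YAP5SA line (2.19% called, against 6.88% of all genes, 3.6% higher and 3.28% lower). This interaction was 0.69 ± 0.091 for ZNF714 (log2, SE, edgeR adjusted p = 0.000973), 0.53 ± 0.12 for ZNF431 (adjusted p = 0.0205, edgeR) and 0.41 ± 0.092 for ZNF738 (adjusted p = 0.0172, edgeR). It was -0.54 ± 0.13 for ZNF841 (edgeR adjusted p = 0.0258) and -0.38 ± 0.091 for ZNF528 (edgeR adjusted p = 0.023). The median over the ZNF genes was -0.014. Only the calls of ZNF714 and ZNF738 held under all 21 alternatives run for them; that of ZNF431 was lost without replicate 1 or replicate 2 of the GFP libraries with doxycycline. The calls of ZNF841 and ZNF528 were each lost in 8 of 21 alternatives, with adjusted p up to 0.0676 and 0.0876, and with any of 5 libraries left out (replicate 1 of each group, or replicate 2 of GFP with doxycycline) 3 genes in all were called.

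Along the chromosome the 3 rising genes are close neighbours but not an unbroken run. In the stretch from ZNF85 to ZNF429, chosen after its values were seen, 8 ZNF genes were tested. All 8 had a positive log2 fold change on induction and 4 were called higher. Over all genes tested 49.2% were positive and 9.83% were called higher. Because the stretch was chosen by its values, its counts are partly set by that choice. ZNF85, a KRAB gene, rose by 0.32 ± 0.11 (log2, edgeR adjusted p = 0.0494). ZNF708, which lies between ZNF431 and ZNF738, had 0.18 ± 0.12 and was not called, with 8.8, 8.3 and 10.7 CPM before and 11.3, 9.07 and 11.2 CPM after induction. These libraries overlapped. ZNF430 had 0.27 ± 0.10 (log2, edgeR adjusted p = 0.0844), and ZNF493 had 0.30 ± 0.15 on induction and 0.33 ± 0.15 with doxycycline in the GFP line. Of 2 other rows tested in the stretch none was called. The call of ZNF85 was lost in 10 of 17 alternatives, among them DESeq2 and the GC correction.

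The 3 genes that fell lie together in a stretch of the cluster from ZNF175 to ZNF331, again chosen after its values were seen. ZNF841 (ENSG00000197608, 52064466 to 52095765, minus strand), a KRAB gene with 20 fingers, went from 16.6, 14.7 and 18.1 to 12, 11.1 and 13.5 CPM, a change of -0.43 ± 0.094 (log2, SE, edgeR adjusted p = 0.00607). Its GFP libraries held 16.7, 16.3 and 18.1 CPM without and 18.7, 16.8 and 19.6 CPM with doxycycline, all above the induced ones. ZNF528 (ENSG00000167555, 52397849 to 52418412, plus strand) went from 12.9, 13.3 and 12.5 to 10.4, 10.7 and 10.7 CPM, with -0.29 ± 0.065 (log2, edgeR adjusted p = 0.00755). Both falls left every induced library below every other library of the study. ZNF836 (ENSG00000196267, 52153864 to 52171643, minus strand) went from 4.74, 5.84 and 5.85 to 4.75, 4.02 and 3.98 CPM; the groups touched, and its call (-0.36 ± 0.12, edgeR adjusted p = 0.043) was lost in 9 of 17 alternatives.

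The neighbours of these genes had log2 fold changes of both signs. From ZNF615 to ZNF578, 13 ZNF genes were tested and 3 had a positive log2 fold change on induction, against 49.2% of all genes. This stretch too was chosen by its values. ZNF614 rose by 0.25 ± 0.071 (log2, edgeR adjusted p = 0.0284), from 7.97, 7.46 and 8.3 to 9.37, 9.27 and 9.51 CPM. ZNF432, whose gene overlaps that of ZNF841, had -0.42 ± 0.15 and missed the threshold (edgeR adjusted p = 0.0616); 3.32% of its exon length overlaps a gene on the same strand, and reads there cannot be assigned to one gene. Of 5 other rows tested in the stretch, among them the phosphatase subunit gene PPP2R1A, none was called on induction. With doxycycline 6 of the 13 ZNF genes were lower in the YAP5SA line, against 18.4% of all genes tested. Of the 5 other rows 2 were lower there and none higher. They were ZNF528-AS1 (-0.79 ± 0.19, log2, SE, edgeR adjusted p = 0.00601) and a sense-overlapping transcript at 52058490 to 52063703 (-1.33 ± 0.47, edgeR adjusted p = 0.0415).

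**Figure D3:**
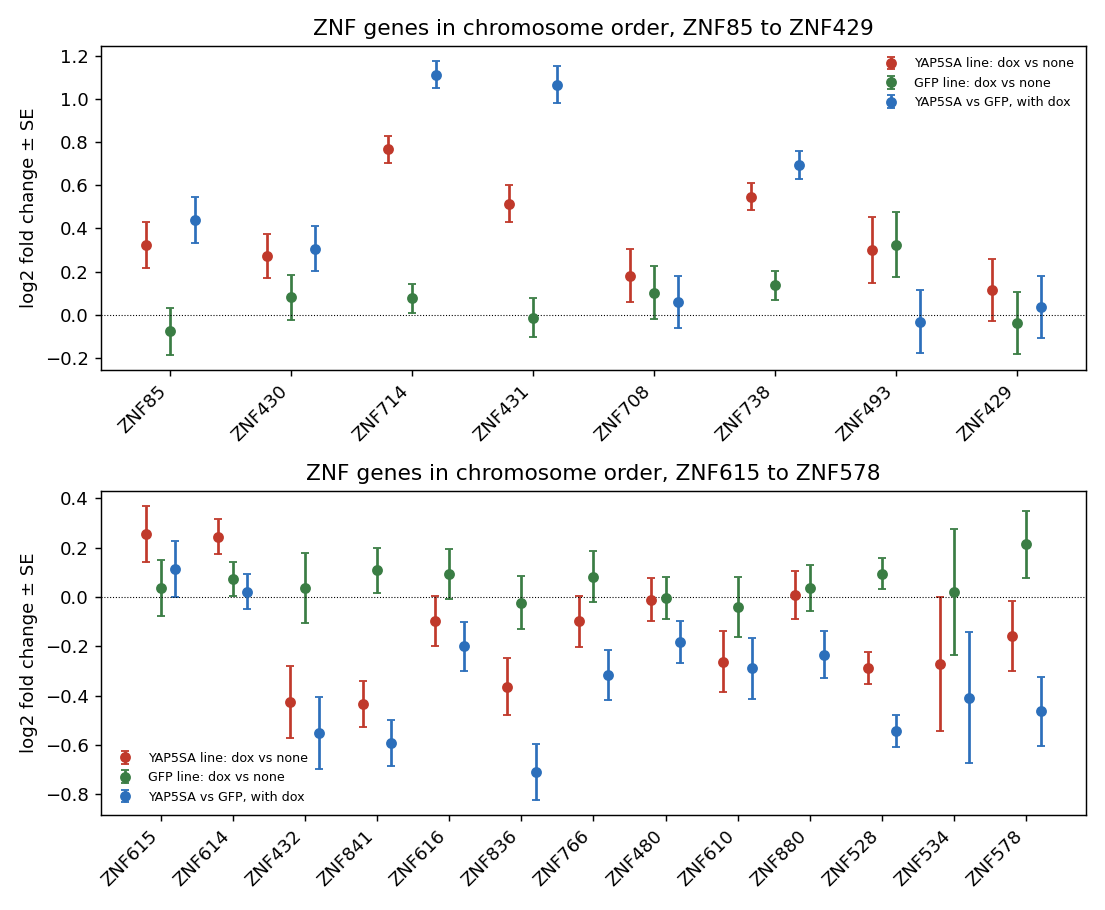
Log2 fold change with its SE (vertical axis) of the tested ZNF genes in chromosome order (horizontal axis) in 2 stretches, for doxycycline in the YAP5SA line, doxycycline in the GFP line, and YAP5SA against GFP with doxycycline. In the upper plot ZNF714, ZNF431 and ZNF738 stand above ZNF708 between them; in the lower plot ZNF841, ZNF836 and ZNF528 lie below 0 and ZNF614 above it on induction.

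The other 9 rises came from 5 clusters, that from ZNF101 to ZNF254 among them, and 1 gene outside the clusters. ZNF552, a KRAB gene, rose from 10.1 ± 0.569 to 13.7 ± 0.354 CPM (log2 0.44 ± 0.090, edgeR adjusted p = 0.00419), and its call held in all 17 alternatives. ZNF426, with its single GGAATG match shown above, rose from 20.6, 22.3 and 22.1 to 26.3, 26.1 and 27 CPM (log2 0.29 ± 0.057, edgeR adjusted p = 0.00323), and this call also held in all 17. ZNF507, a gene outside the clusters, rose by 0.29 ± 0.074 (edgeR adjusted p = 0.014). ZNF69, with 2 matches, went from 4.34, 4.33 and 3.95 to 6.96, 6.98 and 5.09 CPM, and its GFP libraries reached 6.22 CPM.

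The induced ZNF69 libraries lay above the uninduced ones but overlapped with the GFP libraries. Its rise was 0.59 ± 0.16 (log2, edgeR adjusted p = 0.0208), and the call was lost without replicate 1 or 3 of the uninduced or replicate 1 or 2 of the induced YAP5SA libraries (adjusted p up to 0.0781). The call of ZNF507 was lost without replicate 1 of the uninduced or replicate 2 of the induced libraries, and that of ZNF600 (0.28 ± 0.082, edgeR adjusted p = 0.0302) in 7 of 17 alternatives. ZNF562 and ZNF442 complete the 12; they and ZNF614 were named after their values were seen. ZNF562 rose by 0.17 ± 0.052 (edgeR adjusted p = 0.0387), the smallest called rise, and ZNF442 by 0.86 ± 0.24 (edgeR adjusted p = 0.024) at 1.19, 1.5 and 0.986 CPM. Of the 34 genes with GGAATG in the promoter 31 were tested and 2 rose. Of the 185 without it 172 were tested, 7 rose and 3 fell. Over all genes tested 9.83% rose and 9.28% fell on induction, and genes with and without the letters were not compared by a test.

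For doxycycline in the GFP line, the control for the drug, none of the 228 genes and none of all 17470 was called (0% called, edgeR adjusted p) in the fit without pairing. With the GFP groups fitted alone and paired by replicate number, 20 of 16849 genes were called (0.119%), none of them a ZNF gene on chromosome 19, and 7 of the ZNF genes had an unadjusted p below 0.05 (edgeR). Without pairing, at an unadjusted p below 0.05, edgeR and limma-voom found 3 ZNF genes and DESeq2 found 1, and none of these tools called any of them after adjustment. The 3 were ZNF627 (0.28 ± 0.085, log2, SE, edgeR adjusted p = 1), ZNF573 (0.58 ± 0.25) and ZNF461 (-0.31 ± 0.14). ZNF627 went from 10.8, 11.3 and 11.2 CPM to 14.3, 12.9 and 13.1 CPM with doxycycline, so its libraries did not overlap. Libraries of the 2 groups did not overlap for 15 ZNF genes that were higher and 6 that were lower with doxycycline (3.35% and 2.87% of all genes). The median over the ZNF genes was 0.026.

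Between the lines most chromosome 19 ZNF genes were slightly lower in the YAP5SA line. Without doxycycline the log2 fold change was negative for 182 of 228 genes, with a median of -0.119 against -0.002 over all genes. Few single genes passed the test: 5 were higher and 6 lower (4.82% called; 8.65% of all genes were called, 6.04% higher and 2.61% lower). All 3 YAP5SA libraries lay below all 3 GFP libraries for 56 of the 228 and above them for 8, against 13.1% and 16.4% of all genes. Leaving out replicate 1 or 2 of GFP left 6 and 5 calls, and leaving out replicate 1 or 2 of YAP5SA left 5 and 7. The share of all genes called fell as well in these fits, to 4.04%, 3.82%, 3.41% and 5.76%. Without replicate 3 of GFP 8 were called (8.15% of all genes). Without replicate 3 of YAP5SA 13 were, 3 higher and 10 lower (7.16% of all genes called).

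Per library, the median distance of the ZNF genes from each gene's own mean was 0.046, 0.092 and 0.025 (log2) for GFP and 0.099, 0.10 and 0.030 for GFP with doxycycline. It was -0.097, -0.067 and -0.028 for YAP5SA and -0.043, -0.083 and -0.058 for induced YAP5SA. All 6 GFP libraries lay above all 6 YAP5SA libraries. The same was true of the ZNF genes on other chromosomes, whose medians between the lines were -0.113 without and -0.116 with doxycycline (239 tested). The other protein-coding genes of chromosome 19 had 0.028 and 0.010 (769 tested) between the lines; no test compared the sets.

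**Figure D4:**
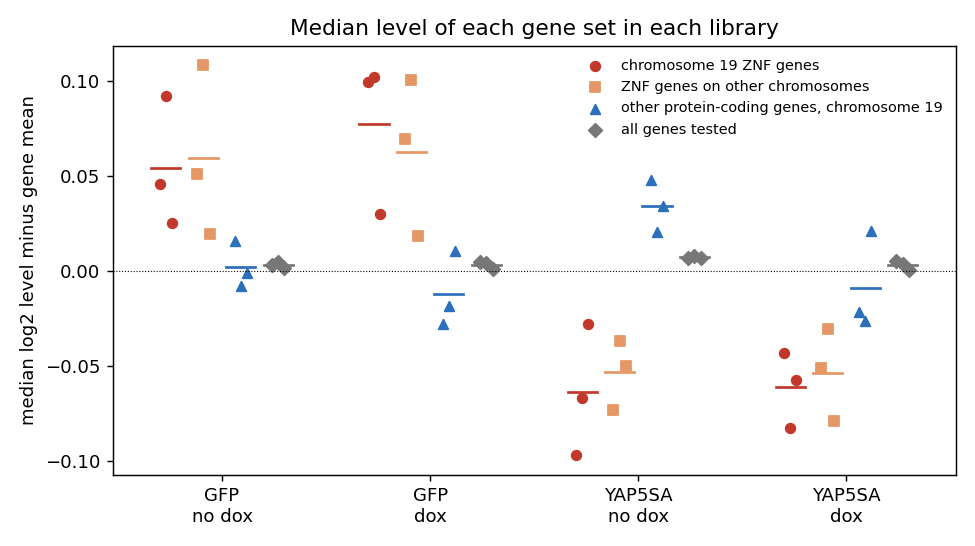
Median log2 level relative to each gene's mean over 12 libraries (vertical axis) in each library (points) by group (horizontal axis), for 4 sets of genes; lines are the means of 3 libraries. Both ZNF sets lie above 0 in all GFP libraries and below 0 in all YAP5SA libraries, while all genes stay near 0. The other chromosome 19 genes lie above 0 in the uninduced YAP5SA libraries (0.048, 0.020 and 0.034) and on both sides of 0 in each other group.

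Several library measures also separated the lines. The ZNF genes took 0.2292 to 0.2424% of all counts in the 6 GFP libraries against 0.2132 to 0.2245% in the 6 with YAP5SA. Totals reached 25177086 in the first and began at 25493014 in the second. TMM factors were 1.0054 to 1.0318 and 0.9762 to 0.9946. Their part in the shift was not tested. With the correction for GC content the median was -0.115 without and -0.145 with doxycycline, and over all scalings it stayed within -0.138 to -0.119 and -0.164 to -0.136. Fewer cells of a type and less RNA per cell cannot be told apart in these bulk libraries. The summed level of the 7 parietal epithelial markers was 4311 to 4473 CPM in GFP and 4511 to 4763 CPM in YAP5SA without doxycycline, and that of the 11 podocyte markers 1290.4 to 1348 and 1280.4 to 1358 CPM. Single markers went both ways. Of the parietal list KRT8 and KRT18 were higher (0.46 ± 0.062 and 0.95 ± 0.11, log2, SE, edgeR adjusted p = 0.000799 and 0.000497) and PAX8 was lower (-0.37 ± 0.078, edgeR adjusted p = 0.013), and the median of the 7 was -0.139. Of the 8 podocyte markers tested TCF21 was higher (0.89 ± 0.16, edgeR adjusted p = 0.00537) and KIRREL1 lower (-0.15 ± 0.042, edgeR adjusted p = 0.0401). The mesangial and fibroblast markers summed to 1306 to 2387 CPM in GFP and 1327 to 2727 CPM in YAP5SA, with ITGA8 at 0, and 1 of the 4 tested, PDGFRB, was called (higher by 1.12 ± 0.15, edgeR adjusted p = 0.000645). Their part was not tested.

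Without doxycycline the 6 lower genes were ZNF506, ZNF792, ZNF701, ZNF549, ZNF653 and ZNF557. ZNF506, a KRAB gene, held 8.63, 9.55 and 10.0 CPM in GFP and 6.99, 5.91 and 7.04 CPM in YAP5SA. The libraries did not overlap, and the difference was -0.50 ± 0.11 (log2, SE, edgeR adjusted p = 0.0136). ZNF701 differed by -0.40 ± 0.078 (edgeR adjusted p = 0.0076), with 10.5, 10.7 and 9.72 against 7.5, 7.46 and 8.5 CPM, and was the only 1 of the 6 to keep its call in all 17 alternatives. ZNF792 (-0.45 ± 0.10) lost it without replicate 2 of GFP, ZNF506 without replicate 2 of GFP or YAP5SA, and ZNF549 (-0.39 ± 0.095) with any of 4 libraries left out. ZNF653 and ZNF557 were at the threshold (edgeR adjusted p = 0.0447 and 0.0468) and each lost the call in 10 of 17.

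The 5 higher genes without doxycycline were ZNF699, ZNF431, ZNF714, ZNF738 and ZNF579. ZNF699, a KRAB gene, held 5.4, 8.36 and 9.21 CPM in GFP, 5.14, 8.02 and 10.2 CPM in GFP with doxycycline, 16.7, 13.6 and 14.8 CPM in YAP5SA and 24.7, 19 and 20.7 CPM in induced YAP5SA. The lines did not overlap, but libraries within a group spread widely. The difference was 0.97 ± 0.24 without doxycycline (log2, SE, edgeR adjusted p = 0.0294) and 1.46 ± 0.23 with it (edgeR adjusted p = 0.000589), the largest called difference of a ZNF gene between the lines. The first of these calls was lost in 8 of 17 alternatives, and the second in 1, the replicate block with the groups compared alone (edgeR adjusted p = 0.0557). ZNF579, the ZNF gene with the highest RPKM, was 0.26 ± 0.059 higher (edgeR adjusted p = 0.0153), with 54.2, 55.6 and 53.9 against 69.9, 61.6 and 65.1 CPM; the call was lost without replicate 1 of either group.

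ZNF714, ZNF431 and ZNF738 thus differed between the lines before doxycycline was added. The differences were 0.42 ± 0.065, 0.54 ± 0.087 and 0.28 ± 0.066 (log2, SE; edgeR adjusted p = 0.00186, 0.00254 and 0.0185). The call of ZNF738 was lost in 6 of 17 alternatives, in all of which the difference lay between 0.25 and 0.33, and the calls of ZNF714 and ZNF431 held in all 17. Known YAP targets also differed there: 5 of 6 listed targets were higher in uninduced YAP5SA than in GFP and none lower. Over all genes tested 6.04% were higher and 2.61% lower. YAP1 itself was not called (0.19 ± 0.36, log2, edgeR adjusted p = 0.812). Any link between these targets and the ZNF genes was not tested.

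With doxycycline in both lines 14 genes were higher and 48 lower in the YAP5SA line (27.2% called; 38.3% of all genes were called, 19.9% higher and 18.4% lower). The log2 fold change was negative for 170 of 228, with a median of -0.136 against -0.005 over all genes. Libraries did not overlap for 71 lower and 17 higher genes (24.3% and 24.6% of all genes). Without replicate 1 of GFP with doxycycline 40 genes were called, 10 higher and 30 lower, and 30.2% of all genes were called in that fit. In a subset chosen after the data were seen, the 152 tested genes with under 5% shared 50-base words, 40 were called, against 62 of all 228. This comparison shares its induced libraries with the induction comparison. The 48 lower genes had called values from -0.81 to -0.19, and the 14 higher ones from 0.18 to 1.46. Of the 48, all 48 were also negative without doxycycline, a comparison made on other libraries of the same lines, as were 182 of all 228 ZNF genes. Of the 14 higher genes 13 were positive there, as were 46 of the 228. Called in both were 5 higher genes (ZNF579, ZNF738, ZNF714, ZNF431 and ZNF699) and 4 lower ones (ZNF506, ZNF792, ZNF701 and ZNF549).

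Of the higher genes, ZNF714 was 1.11 ± 0.064 higher (log2, SE, edgeR adjusted p = 9.17e-08) and ZNF431 1.07 ± 0.086 (edgeR adjusted p = 1.11e-06). ZNF799 had 0.54 ± 0.18 at 2.25, 2.42 and 2.18 against 3.68, 3.2 and 3.08 CPM; 23.98% of its 50-base words are shared with other genes, so its reads may be split. Of the lower genes ZNF836 had -0.71 ± 0.11 (edgeR adjusted p = 0.000295), with 7.32, 6.71 and 6.85 against 4.75, 4.02 and 3.98 CPM. ZNF841 had -0.59 ± 0.094, ZNF814 -0.58 ± 0.15, ZNF432 -0.55 ± 0.15, ZNF528 -0.54 ± 0.064, ZNF347 -0.53 ± 0.13 and ZNF227 -0.50 ± 0.094. These calls held in all 17 alternatives, except that of ZNF799, which was lost without replicate 1 or 3 of GFP with doxycycline or replicate 1 of induced YAP5SA. Exons of ZNF814 and ZNF227 overlap an antisense gene over 20.37% and 19.14% of their length.

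Of 7 genes in a fixed set, some with known targets, 1 was called in any comparison. ZNF93, which represses young LINE-1 elements, differed by -0.81 ± 0.20 between the lines with doxycycline (log2, SE, edgeR adjusted p = 0.00692). Its libraries held 1.46, 1.35 and 1.27 CPM in GFP and 0.791, 0.868 and 0.671 CPM in YAP5SA, a low level without overlap. ZNF91, which represses SVA elements, held 22.6, 24.3 and 22.5 CPM before and 27, 26.1 and 23.2 CPM after induction and was called in no comparison. ZNF331, an imprinted gene, and ZNF568, ZNF649, ZNF765 and ZNF382 were called in none either, with values on induction of 0.048 ± 0.12, 0.019 ± 0.21, 0.028 ± 0.11, -0.12 ± 0.096 and 0.41 ± 0.16. ZNF274, which brings SETDB1 to the 3′ ends of ZNF genes and was named after its value was seen, was -0.21 ± 0.072 with doxycycline between the lines (log2, edgeR adjusted p = 0.0321), at 19, 17.4 and 18.4 against 15.9, 15.1 and 16.3 CPM.

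By position, the medians of the clusters had a wide range. Counts of called genes in each are to be read against all genes with doxycycline, of which 19.9% were higher and 18.4% lower. In the cluster from ZNF175 to ZNF331, 39 genes were tested; with doxycycline 15 were lower and 1 higher in the YAP5SA line, with a median of -0.259. In the last cluster, from ZNF264 to ZNF446, 43 were tested, 12 were lower and 1 higher, with a median of -0.214. In the cluster from ZNF101 to ZNF254, 27 were tested, 5 were higher and 4 lower, shares near those of all genes, with a median of 0.026. In the cluster from ZNF565 to ZNF573, 26 were tested and 2 were lower, although 25 of 26 were negative without doxycycline (median -0.124). No test compared the clusters.

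By build, genes with and without KRAB letters had medians of the same sign between the lines. With doxycycline the median between the lines was -0.146 over 183 genes with KRAB letters (10 higher, 42 lower) and -0.104 over 45 without (4 higher, 6 lower). Over all genes tested 19.9% were higher and 18.4% lower in this comparison. Without doxycycline it was -0.134 and -0.069. By number of fingers the median with doxycycline was -0.104 for 0 to 9 fingers, -0.140 for 10 to 14 and -0.181 for 15 or more. By GC content it was -0.148 below 50% GC and -0.106 at 50% or more, and by shared 50-base words -0.119 under 5% and -0.164 at 5% or more. These splits, together with those by cluster and by GGAATG, are 6 in all, several chosen with the data in view, and none was tested.

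The partners of KRAB proteins were read from a list of 22 genes, all tested. On induction 1 rose and 4 fell, a share near that of all genes (19.1% called), so nothing particular to the partners is read from it. TRIM24, a TRIM28 relative, was -0.37 ± 0.059 (log2, SE, edgeR adjusted p = 0.00079), and ATF7IP, which stabilizes SETDB1, was -0.39 ± 0.097 (edgeR adjusted p = 0.0139). HDAC1, a histone deacetylase, was -0.15 ± 0.036 and CBX1, an HP1 protein, 0.20 ± 0.055 (edgeR adjusted p = 0.0109 and 0.0221). ZFP57, a KRAB protein that guards imprints, was -1.34 ± 0.30 (edgeR adjusted p = 0.00642), from 0.91 to 0.355 CPM.

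TRIM28 itself was not called in any comparison, with 213 ± 4.99 CPM before and 205 ± 5.99 CPM after induction (SD, n = 3). SETDB1 was not called either. In the interaction TRIM24 (-0.36 ± 0.083) and ZFP57 (-1.46 ± 0.38) were lower. With doxycycline 2 of the 22 were higher and 7 lower between the lines, again near the share of all genes (38.3% called): CBX1 and PPHLN1, a HUSH complex subunit, were higher, and TASOR (also HUSH), MORC3, NR2C1, ATF7IP, TRIM24, HDAC1 and ZFP57 were lower. Without doxycycline HDAC1 was lower and no other was called. With doxycycline in the GFP line none of the 22 was called.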

How the data were processed

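RNA from 12 libraries, 3 in each of 4 groups, was sequenced. Each library started from 1000 ng of total RNA and a kit for mRNA, per the labels' protocols. The authors deposited whole-number counts of reads per gene. The submitters' processing notes name DRAGEN, Subread, featureCounts, DESeq2 and limma and the build GRCh38 (hg38). No source used here gives their versions, roles or strand setting. The genes described, the gene lists and the comparisons were chosen with earlier results of these data known.

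Symbols came from a table of Ensembl identifiers, positions and exons from GENCODE 29 (GRCh38) and promoters from RefSeq (GRCh38.p14). The test on the counts was that of edgeR 4.0.16 (R 4.3.3), with filterByExpr on the groups, TMM scaling and a robust quasi-likelihood fit over all 12 libraries (17470 genes, 8 residual degrees of freedom, biological coefficient of variation 7.48%). A call needs a p below 0.05 after Benjamini-Hochberg adjustment over all genes tested. CPM and RPKM were computed from the counts and TMM factors. The SE is the size of the log2 fold change over the root of the F statistic. The test was first run on simulated data, where many small changes in genes of low count were missed; pass marks for recovery and false calls were altered after their outcome was seen and then dropped, so none is claimed.

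Named genes were, for each comparison but that of doxycycline in the GFP line, up to 8 called rises and 8 falls by size whose libraries do not overlap and whose higher group holds 2 CPM or more. For doxycycline in the GFP line they were the 3 genes with the smallest p. Added were the 6 genes of highest RPKM, the 3 smallest p each way on induction, a fixed set of 7 (ZNF91, ZNF93, ZNF649, ZNF765, ZNF331, ZNF568, ZNF382) and called members of a list of 22 KRAB partners. Podocyte, parietal, mesangial and fibroblast, endothelial, leukocyte and YAP target lists served as checks; 1 of 4 tested mesangial and fibroblast genes (PDGFRB) rose on induction, 1 of 8 podocyte genes rose and 2 fell, 1 of 7 parietal genes rose and 3 fell, all 6 YAP targets rose and the 1 leukocyte gene tested was not called.

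Other settings tried were upper-quartile and RLE scaling, a stricter filter or none, DESeq2 1.42.0, limma-voom (limma 3.58.1), a GC correction, fits of the compared groups alone, a block for the replicate number, and fits with 1 library left out. Deviations of same-numbered libraries correlated at 0.23, 0.42 and 0.41 between the GFP groups. A fit paired by the labels' replicate numbers is therefore given for them beside the main fit. No other pair of groups passed 0.1 for every number. The main fit holds no term for the replicate number, so its values for doxycycline in the GFP line and for the interaction are unpaired. Replicates differed by more than sampling noise, so none was a duplicate.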

Additional observations from a re-analysis of the deposited data

Results flagged for a closer look

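In 5 of the 228 genes tested the change with doxycycline differed between the YAP5SA line and the GFP line. This is by the test of that difference itself (edgeR interaction term, adjusted p below 0.05). The share called was 2.19%, below the 6.88% of all genes. The difference of the effects was 0.69 for ZNF714, 0.53 for ZNF431 and 0.41 for ZNF738 on the log2 scale. It was -0.54 for ZNF841 and -0.38 for ZNF528. The calls of ZNF841 and ZNF528 were each lost in 8 of 21 alternatives, and that of ZNF431 in 2.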

How the results depend on the processing

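Of the values of single named genes under the alternatives, 3394 kept their side of the threshold, 107 lost a call and 59 gained one. None that was called in either fit reversed its sign. A change of sign in a value called in neither fit is counted among the 3394. The counts of called ZNF genes moved by more than 1.5 times under 8 alternatives each in the interaction and between the lines without doxycycline, 4 on induction and 2 between the lines with it. Outside induction these include a subset of the ZNF genes in the main fit, where fewer genes were counted and nothing was fitted anew. With the replicate number as a block over all 12 libraries, 28 ZNF genes were called on induction, 9 in the interaction, 26 between the lines without doxycycline and 73 with it. Of all genes 27.9%, 13.8%, 17.1% and 45.4% were then called, against 19.1%, 6.88%, 8.65% and 38.3% in the main fit. With a GC correction added the block gave 24, 10, 26 and 79 ZNF genes, and 27.2%, 13.3%, 17.6% and 46.2% of all genes. Blocked within the groups compared, induction gave 28 and the lines without doxycycline 25 (30.2% and 18.8% of all genes were called). Between the lines without doxycycline the split of 5 higher and 6 lower became 4 and 22 in both fits over 12 libraries and 5 and 20 in that of the groups alone. Only for the GFP groups is a paired fit read as pairing, and it stands beside the unpaired main fit. With doxycycline in the GFP line no ZNF gene was called with or without the block. Over all genes the paired fit of these groups called 20 and the block over 12 libraries 1, against 0 without. In the YAP5SA groups same-numbered libraries correlated at -0.12, 0.35 and 0.33, so the labels' numbers are not treated as pairs. Leaving out 1 library gave 9 to 19 calls on induction, 0 in the GFP line, 3 to 6 in the interaction, 5 to 13 between the lines without and 40 to 67 with doxycycline. Of all genes 13.4 to 18.9% were called on induction in these fits and 4.22 to 7.79% in the interaction. Between the lines it was 3.41 to 8.15% without and 30.2 to 35.7% with doxycycline. The medians ranged over these fits from -0.014 to 0.038 on induction, -0.133 to -0.089 without and -0.162 to -0.117 with doxycycline between the lines. Among the 152 tested genes with under 5% shared 50-base words, 7 were called without and 40 with doxycycline, against 11 and 62 of all 228. ZNF714, ZNF431 and ZNF738 are the 3 higher calls of the interaction, so leaving them out of the count left the 2 lower ones. That number was fixed by the choice of genes and tests nothing. Both subsets were chosen after seeing the data. Low counts limit what could be called: the median tested ZNF gene had 1866 counts over 12 libraries and the lowest 95.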
